A study of Mus musculus with 12 samples.

Results

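The proteasome is the barrel-shaped protease that degrades proteins tagged with ubiquitin. Its core particle is built of rings of alpha subunits (Psma genes), which form the gates, and rings of beta subunits (Psmb genes), 3 of which, encoded by Psmb5, Psmb6 and Psmb7, cut peptide bonds. A regulatory particle caps the core: its base holds the ATPases that unfold substrates (Psmc genes) with scaffold and ubiquitin-binding subunits, and its lid holds the subunits that strip ubiquitin (Psmd genes). Other caps (Psme genes), an inhibitor-type regulator (Psmf1) and assembly chaperones (Psmg genes and some Psmd genes) complete the set. In the early mammalian embryo the ubiquitin-proteasome system is known for the clearance of maternal proteins.

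The genes described here are the 49 symbols, of 22619 in the deposited files, that begin with Psm, a letter from a to g and a digit. They comprise 19 core genes (Psma and Psmb), 21 base and lid genes (Psmc and Psmd) and 9 regulators (Psme to Psmg). One of the 49, Psmc3ip, is matched by its symbol only: it encodes a meiotic recombination factor named after its interaction with Psmc3 and is no proteasome subunit. Psme2b, a near-identical copy of Psme2, was not analysed here.

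RNA was sequenced with Smart-seq2, which copies full-length polyadenylated RNA from minute samples. C57BL/6 embryos were wild type (control embryo, n = 2), carried a Dcaf11 knockout (KO embryo, n = 3) or carried the knockout and the word arrest in their title (KO arrest, n = 3). 129Sv embryonic stem (ES) cells were wild type by label (control ESC, n = 2) or carried a Dcaf11 knockdown (KD ESC, n = 2). The Dcaf11 protein brings substrates to a ubiquitin ligase built on CUL4 and DDB1. The labels give no stage, sex, number of cells or deleted part of Dcaf11, and no agent of the knockdown. The labels do not say whether the libraries of a group are separate embryos or cultures, so the p-values reflect library-to-library spread, possibly of technical origin. The smallest p of an exact permutation test of 3 against 2 libraries is 0.2 and of 3 against 3 is 0.1, so tests rest on limma fitted across all genes.

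Levels are FPKM, reads scaled by gene length and by library size, and the number of reads is unknown. Dcaf11 itself had levels of 2.82 and 14.3 FPKM in control embryos 1 and 2, of 3.99, 2.84 and 0.184 in KO embryos 1 to 3 and of 4.43, 0.422 and 6.02 in KO arrest 1 to 3. These groups overlapped, so Dcaf11 did not separate knockout from wild-type embryos. Dcaf11 was at 6.48 and 4.52 FPKM in the control ES cells and at 1.69 and 1.83 in the knockdown cells. Control embryo 1 stood apart: it listed 12 of the 49 genes at 0, against 2 to 5 in the other libraries, and correlated with control embryo 2 at r = 0.812, against 0.915 to 0.981 within the other groups. In control embryo 1, 6573 genes reached 1 FPKM, against 8535 to 12061 in the other libraries. Its deposited coverage divided by FPKM, a measure of relative depth, was the highest at 2.01. A gene listed at 0 may be a failed estimate. The 19 early embryo and oocyte markers summed to values from 38919 to 54450 FPKM over wild-type embryos, from 12518 to 18545 over KO embryos and from 1231 to 2224 over KO arrest. Their part in the differences below was not tested. In these embryo libraries, fewer cells of a type and less RNA per cell cannot be told apart.

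Summed RNA of the core and of the base and lid was lowest in control embryos and highest in the arrested knockout embryos. The summed level of the 14 constitutive core subunits was 308.8 and 407.7 FPKM in control embryos 1 and 2, and 1239, 886.8 and 1174 in KO embryos 1 to 3. It was 3120, 3455 and 3993 FPKM in the KO arrest libraries. The 17 base and lid subunits summed to 223 and 238 FPKM in wild-type embryos, 735, 628 and 809 in KO embryos and 1497, 1660 and 1879 in KO arrest. For both particles the 3 embryo groups formed separate ranges in that order. Both ES cell groups were close to each other, with core sums of 551 and 531 FPKM in control cells and 454 and 517 in knockdown cells. All 49 genes took 0.187% and 0.216% of a control embryo library's FPKM, 0.483% to 0.568% of a KO embryo library's and 1.04% to 1.15% of a KO arrest library's. Of the 31 constitutive core, base and lid subunits, 26 had their highest group mean in KO arrest, 3 in control ESC and 2 in KD ESC.

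**Figure D1:**
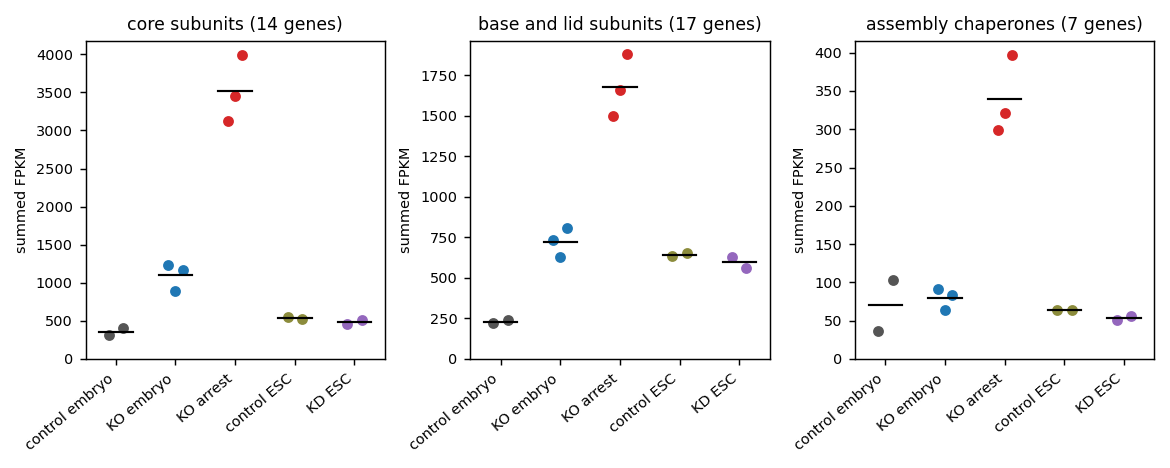
Summed FPKM of the constitutive core subunits (14 genes), of the base and lid subunits (17 genes) and of the assembly chaperones (7 genes) in each of the 12 libraries. Points are libraries and bars are group means. The KO arrest libraries lie above all others in the 3 panels, and the KO embryo libraries lie above the control embryos for core and for base and lid but not for chaperones.

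Knockout embryos had more RNA of a subset of core, base and lid subunits than wild-type embryos. Of the 46 genes tested, 9 were higher and 0 lower, beside 4.86% of 11795 genes called higher, 1.5% lower and 6.36% in either direction (limma, Benjamini-Hochberg adjusted p under 0.05). The 9 were the core genes Psma6, Psmb1, Psmb2, Psmb4, Psmb7 and Psmb10, the base ATPase Psmc2 and the lid genes Psmd7 and Psmd12. No Psme, Psmf or Psmg gene was called. On the log2(FPKM + 1) scale used throughout, the median log2 fold change was 1.19 over the 46 genes and 0.31 over all genes tested. By unadjusted p under 0.05, 21 of the 46 were higher and 0 lower, which is 45.7% beside 22.5% of all genes in either direction. All 3 KO embryos lay above both control embryos in 24 of the 46 genes, where the share over all genes was 24.2%, and below both in 2, where it was 12.1%.

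The lid subunit Psmd7, the partner of the deubiquitinating subunit Psmd14, was at 36.2 and 48.0 FPKM in wild-type embryos and at 305, 275 and 307 in KO embryos. The groups were far apart, 7.03-fold in their means, and the log2 fold change was 2.80 ± 0.33 (SE, limma adjusted p = 0.00307). Psma6, an alpha ring subunit, was at 19.2 and 13.5 FPKM in wild-type embryos and at 165, 109.7 and 200.2 in KO embryos. Its log2 fold change was 3.17 ± 0.40 (limma adjusted p = 0.00424). Psmd7 and Psma6 were the only genes of the 9 that were also called in each of the 19 alternative settings run for this comparison. Psmb2, a non-catalytic beta subunit, was at 11.4 and 73.2 FPKM in control embryos and at 223, 152 and 236 in KO embryos (log2 fold change 2.73 ± 0.62). Psmb4, also a non-catalytic beta subunit, was listed at 0 and was at 4.30 FPKM in control embryos, and was at 38.2, 28.4 and 11.98 in KO embryos (3.42 ± 0.76). For both, the lower control value came from control embryo 1, and the KO embryos lay above both controls. Psmb4 was under 1 FPKM in control embryo 1 and entered the test through its knockout levels, so its call supports no direction. Psmb1, the beta subunit with the highest control embryo level, was at 65.0 and 91.2 FPKM in control embryos and at 254, 159 and 231 in KO embryos (1.44 ± 0.35).

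Of the 3 catalytic beta genes, 1 was called in the KO embryos and 2 were not, beside 6.36% of all genes called. Psmb7, the trypsin-like subunit, was at 20.2 and 14.4 FPKM in control embryos and at 79.95, 70.6 and 65.1 in KO embryos, and was called higher (log2 fold change 2.01 ± 0.37, limma adjusted p = 0.0155). Psmb5, the chymotrypsin-like subunit, was at 2.66 and 45.3 FPKM and at 118, 91.3 and 105, with a log2 fold change of 3.01 ± 0.82 that missed the threshold (limma adjusted p = 0.0545). Psmb6, the caspase-like subunit, was at 24.1 and 36.4 FPKM and at 22.0, 17.9 and 37.4, so that its groups overlapped (−0.26 ± 0.44, limma adjusted p = 0.776). Psma1, of the alpha ring, overlapped as well, at 23.3 and 27.7 FPKM in controls and 23.7, 22.4 and 26.1 in KO embryos. In the regulatory particle, the ATPase gene Psmc2 was at 5.37 and 4.74 FPKM in controls and at 23.3, 18.6 and 43.2 in KO embryos (2.19 ± 0.49). The lid gene Psmd12 was at 13.5 and 42.3 FPKM in controls and at 95.4, 90.1 and 109 in KO embryos (1.98 ± 0.47).

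No sign among the 9 genes called in KO embryos changed when a library was left out. Psmb4 and Psmb10 entered the test through their knockout levels, so their constant sign supports no direction. The number of genes called in this comparison did depend on single libraries. Leaving out control embryo 1 gave 6, and leaving out control embryo 2 gave 17. It was 2, 4 and 2 without KO embryo 1, 2 and 3, and 5, 3 and 5 without KO arrest 1, 2 and 3, which enter through the shared estimate of the spread. With median-of-ratios scaling, which moved the median of all genes by −0.36, 4 genes were higher and 0 lower, while the share of all calls that were higher fell from 76.4% to 35.3%. With the trend on gene length removed, 6 were higher and 0 lower. Proteasome genes are short, with a median exon length of 1541 bases against 2756 over all genes.

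**Figure D2:**
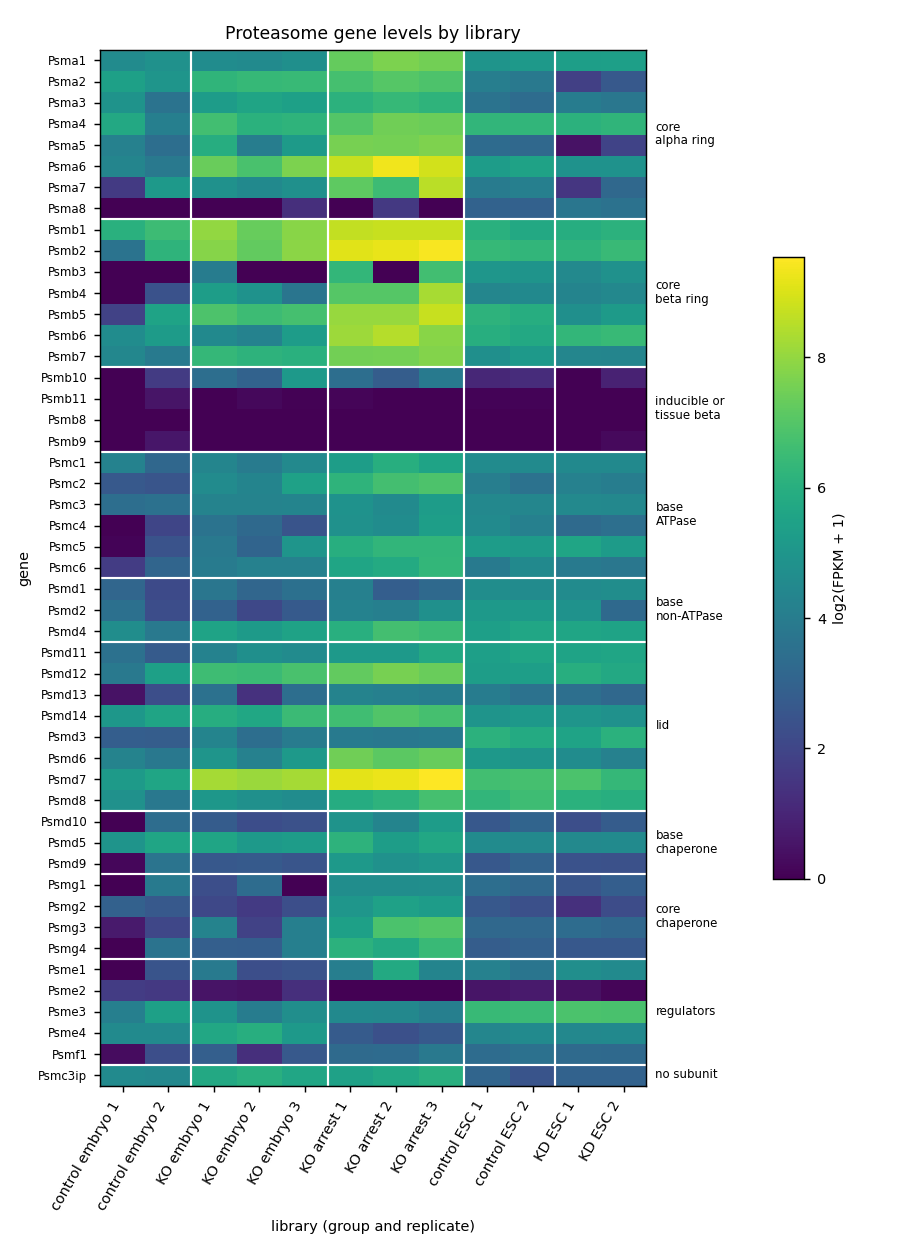
Level of each of the 49 genes in each of the 12 libraries, as log2(FPKM + 1), with genes in rows grouped by structural class and libraries in columns grouped by sample group. Psmd7, Psma6, Psmb2 and Psmb1 are bright in the KO embryo and KO arrest columns, Psmb8, Psmb9 and Psmb11 are near 0 in every column, and Psme4 is darkest in KO arrest.

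Arrested knockout embryos had higher RNA of 27 of the 31 constitutive core, base and lid subunits and of most assembly chaperones than wild-type embryos and lower RNA of the cap encoded by Psme4. Of the 46 genes tested, 35 were higher and 2, Psme4 and Psme2, lower, beside 16.4% of all genes called higher, 8.87% lower and 25.2% in either direction. The median log2 fold change was 2.75 over the 46 genes and 0.45 over all genes. With TPM, median-of-ratios scaling, quantile normalization and the length trend removed, the medians of all genes moved to between 0.02 and 0.10, and those of the proteasome genes were 2.51, 2.17, 2.16 and 1.93. All KO arrest libraries lay above both controls in 39 of the 46 genes, where the share over all genes was 31.3%, and below both in 2, where it was 17.5%. This comparison shares its controls with the one above.

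By role, 7 of 8 alpha ring genes, 6 of 7 constitutive beta genes, 6 of 6 base ATPases, 1 of 3 other base subunits and 7 of 8 lid genes were higher in KO arrest. The largest change among called genes was that of Psmb4, at 131, 128 and 310.5 FPKM in KO arrest against 0 and 4.30 in the controls (log2 fold change 6.24 ± 0.76, limma adjusted p = 0.000497). Psmb4 was under 1 FPKM in control embryo 1 and entered the test through its knockout levels, so this call supports no direction. Psma6 reached 428, 639 and 475 FPKM, 31.4-fold above the control mean (4.89 ± 0.40, limma adjusted p = 0.000141). Psmd7 reached 569.8, 606 and 744 FPKM (3.90 ± 0.33, limma adjusted p = 0.000141), and Psmb2 reached 553, 593 and 691 (4.33 ± 0.62). These values were above the KO embryo values of the same genes in every library. Among catalytic subunits, Psmb5 was at 268, 266 and 422 FPKM (4.58 ± 0.82), Psmb6 at 283, 353 and 227 (3.21 ± 0.44) and Psmb7 at 183, 187 and 218 (3.44 ± 0.37), and each group lay clear of its controls. Psma7, an alpha subunit, was at 142, 91.5 and 378 FPKM against 2.11 and 33.6 in controls (4.04 ± 0.89), and Psma5 at 192, 185 and 207 against 17.5 and 9.91 (3.78 ± 0.55).

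Among base ATPases the largest change was that of Psmc5, at 62.8, 76.6 and 77.5 FPKM in KO arrest against 0.0584 and 4.43 in control embryos (4.93 ± 0.75). Psmc2 was at 71.9, 101 and 116 FPKM in KO arrest (3.98 ± 0.49) and Psmc4 at 27.7, 24.3 and 39.4 against 0 and 3.01 (3.94 ± 0.69). Psmc4 and Psmc5 were under 1 FPKM in control embryo 1. Both entered the test through their knockout levels, so their calls support no direction. Of the lid, Psmd6 was at 177, 138 and 160.0 FPKM against 18.03 and 13.1 (3.27 ± 0.44), and its KO embryo values of 30.2, 17.3 and 34.6 overlapped the controls. The ubiquitin receptor Psmd4 was at 63.8, 102 and 90.5 FPKM against 24.8 and 13.5 (2.13 ± 0.44).

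Of the 46 genes, 9 were not called in KO arrest against control embryo. The scaffold subunits of the base were among them: Psmd1 was at 16.9, 6.29 and 8.62 FPKM in KO arrest against 7.81 and 3.42 in controls, which overlapped. Psmd2, which receives shuttle proteins, was at 17.8, 16.4 and 26.9 against 10.5 and 3.80 (log2 fold change 1.49 ± 0.60, limma adjusted p = 0.0928). The lid gene Psmd3 was at 13.8, 13.01 and 14.04 FPKM against 6.14 and 5.95, above both controls yet not past the threshold (1.05 ± 0.50, limma adjusted p = 0.149). Psmb3, a beta subunit, was listed at 0 in both controls and in KO arrest 2, with 77.8 and 99.4 FPKM in KO arrest 1 and 3. The others were Psma8, Psmd5, Psme3, Psmf1 and Psmg1, described below.

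The count of genes called lay between 29 and 36 when single libraries were left out, and was 29, of which 28 were higher, without control embryo 1. With the length trend removed it was 24, of which 22 were higher and 2 lower. Of the 37 genes, 19 were called in each setting that was run: Psma1, Psma5, Psma6, Psma7, Psmb1, Psmb2, Psmb4, Psmb5, Psmb6, Psmb7, Psmc2, Psmc4, Psmc5, Psmc6, Psmd6, Psmd7, Psmd12, Psmg3 and Psmg4. Of these 19, Psmb4, Psmc4, Psmc5, Psmg3 and Psmg4 were under 1 FPKM in control embryo 1 and entered the test through their knockout levels. Their calls support no direction. Several subunit genes have processed copies elsewhere in the mouse genome, and the sources used here do not give how reads were shared between copies.

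**Figure D3:**
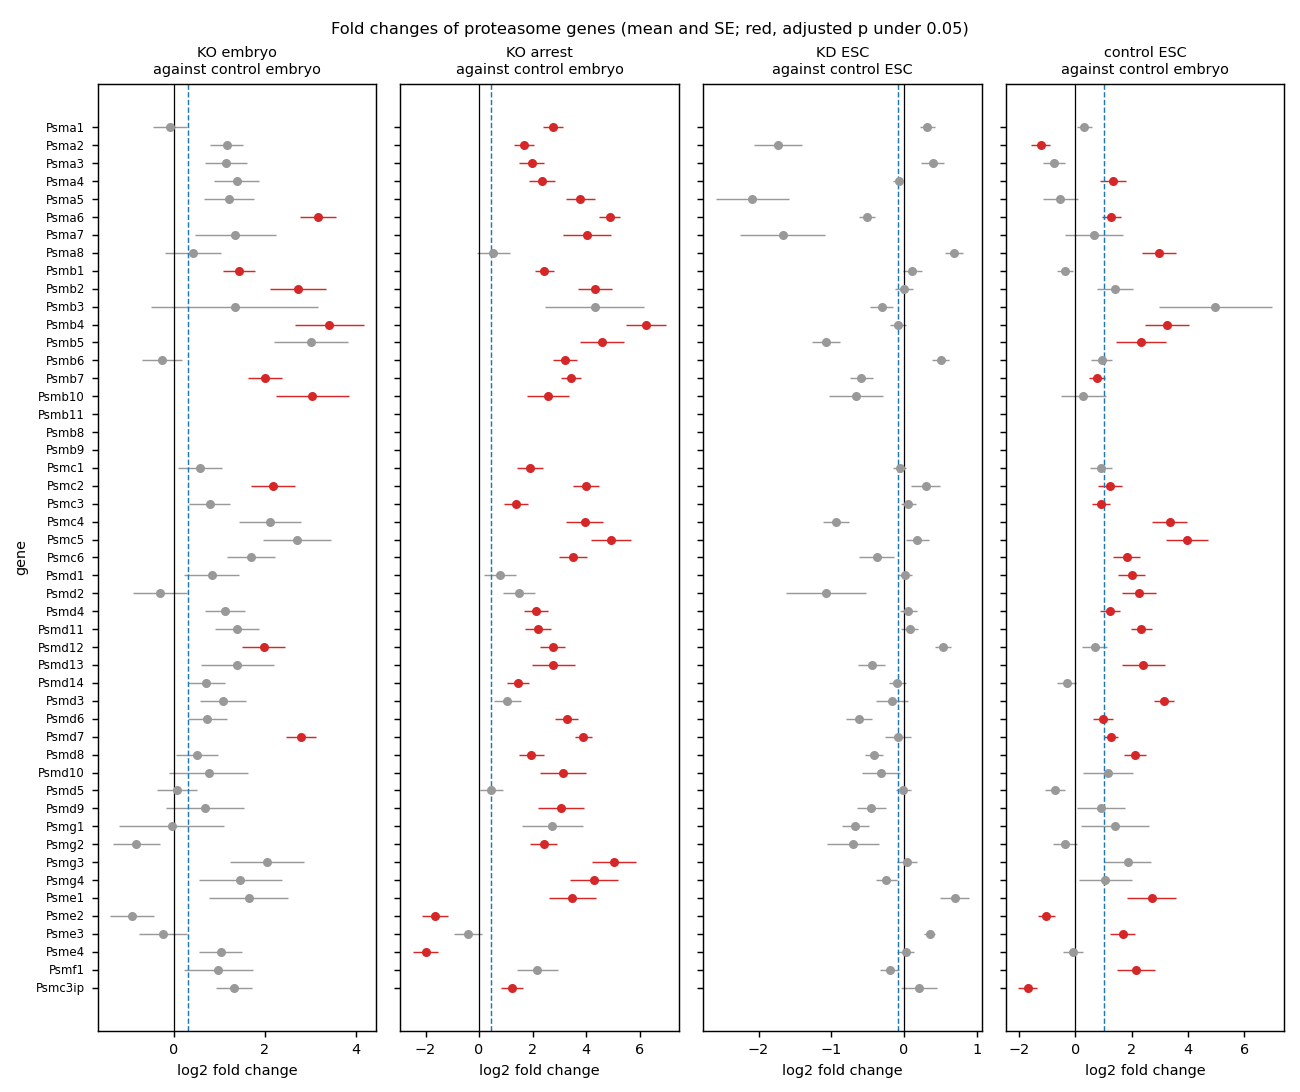
Log2 fold change of each tested gene, on the log2(FPKM + 1) scale with its SE, in 4 comparisons. Red points have an adjusted p under 0.05, the solid line is 0 and the dashed line is the median of all genes tested. Most points of KO arrest against control embryo lie to the right of the dashed line with Psme4 and Psme2 to the left, and no point of KD ESC against control ESC is red.

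Within the knockout embryos, those titled arrest had more RNA of 12 of the 46 genes and less of 1, beside 4.93% of all genes called higher, 3.65% lower and 8.58% in either direction. The median log2 fold change was 1.44 over the 46 genes and 0.07 over all genes. The 12 were Psma1, Psma5, Psma6, Psmb4, Psmb6, Psmb7, Psmc2, Psmc6, Psmd6, Psmd7, Psmg2 and Psmg3. Psmb6 and Psma1, which were not called in KO embryos against controls, were called here. Psmb6 had a log2 fold change of 3.47 ± 0.40 (limma adjusted p = 0.00329). Psma1 was at 154, 200.2 and 180.3 FPKM in KO arrest, 7.41-fold above the KO embryo mean (2.83 ± 0.34, limma adjusted p = 0.00335). Psmc6, a base ATPase, was at 47.7, 56.4 and 78.8 FPKM against 14.5, 17.2 and 17.4 in KO embryos (1.81 ± 0.47). In each of these genes the groups did not overlap, which held for 36 of the 46 genes with KO arrest above (19.4% over all genes) and for 2 with KO arrest below (17.7%).

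This count moved from 5 to 28 when single libraries were left out. Without control embryo 1 or 2, which enter only through the spread, it was 27 and 28. It was 10, 7 and 5 without KO arrest 1, 2 and 3, and 6, 6 and 8 without KO embryo 1, 2 and 3. With TPM, which moved the median of all genes by −0.35, 5 were higher and 1 lower. Psma1, Psmb6, Psmd6, Psmg2 and Psme4 were called in each of the 19 settings.

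The catalytic genes Psmb5 and Psmb6, both called higher in KO arrest, are used to show the promoter letters of the family. Each window holds the core of the antioxidant response element, TGACNNNGC, which is bound by factors known to control proteasome genes such as Nfe2l1. The windows are the 250 bases before the start of each gene from RefSeq (GRCm38.p6), Psmb5 at chr14:54617996-54618245 on the minus strand and Psmb6 at chr11:70525107-70525356 on the plus strand. They are written 5′ to 3′ in the direction of the gene, with the motif in capitals.
Psmb5: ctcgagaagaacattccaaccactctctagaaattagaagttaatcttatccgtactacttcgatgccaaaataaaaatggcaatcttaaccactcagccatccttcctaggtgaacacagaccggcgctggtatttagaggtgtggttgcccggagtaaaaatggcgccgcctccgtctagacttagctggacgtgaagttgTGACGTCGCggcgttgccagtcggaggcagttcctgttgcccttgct
Psmb6: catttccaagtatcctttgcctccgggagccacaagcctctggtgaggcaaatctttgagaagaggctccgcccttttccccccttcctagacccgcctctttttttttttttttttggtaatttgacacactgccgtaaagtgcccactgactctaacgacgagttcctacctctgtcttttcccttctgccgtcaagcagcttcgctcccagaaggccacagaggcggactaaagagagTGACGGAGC
The motif, searched on both strands, was in the windows of 5 of the 41 proteasome genes with a window: Psmb5, Psmb6, Psmc6, Psmd9 and Psmd12. That is 12.2% of them, beside 11.52% of the 27025 genes with a window. CCAAT was found for 36.59% of the proteasome genes and 37.49% of all, and GGGCGG for 53.66% and 35.36%. A match is a description of the letters and not a bound site.

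Nfe2l1, the transcription factor that restores proteasome genes when proteasome activity is low, was at 6.81 and 0.374 FPKM in control embryos, 14.9, 9.77 and 9.33 in KO embryos and 11.6, 10.4 and 11.9 in KO arrest. The knockout libraries lay above both controls, without passing the threshold in KO arrest (log2 fold change 1.91 ± 0.72, limma adjusted p = 0.0769). Of 8 tested genes listed as regulators of proteasome genes, 1 was called in KO arrest against control embryo, beside 25.2% of all genes, and the median log2 fold change was 0.45, as over all genes. The gene called was the small Maf factor Mafg, at 22.4, 26.9 and 28.7 FPKM against 1.29 and 12.4 (2.28 ± 0.73). Syvn1, an endoplasmic reticulum ubiquitin ligase, was at 1.98, 3.23 and 4.28 FPKM against 0.0848 and 0.816 and was not called (1.53 ± 0.65, limma adjusted p = 0.109).

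Most assembly chaperones were higher in the arrested embryos. In the KO embryos 0 of the 7 were called, near the 6.36% of all genes, and Psmg3 was higher by unadjusted limma p under 0.05. The 7 chaperone genes summed to 37.1 and 103 FPKM in control embryos and to 90.9, 64.3 and 83.0 in KO embryos, which lie within the control range. They summed to 299, 321 and 397 FPKM in KO arrest, above every other library. By the test, 5 of the 7 were higher in KO arrest, beside 16.4% of all genes. Of these, Psmg3, Psmg4, Psmd9 and Psmd10 were under 1 FPKM in control embryo 1. They entered the test through their knockout levels, so their calls support no direction. Psmg3, of a pair that guides alpha ring assembly, was at 0.617 and 3.10 FPKM in controls, 18.1, 2.66 and 16.2 in KO embryos and 41.5, 114 and 127 in KO arrest (KO arrest against control 5.05 ± 0.82, limma adjusted p = 0.002). Its partner Psmg4 was listed at 0 and was at 11.6 FPKM in controls, and was at 6.48, 6.17 and 16.5 in KO embryos and 68.3, 54.3 and 87.5 in KO arrest (4.30 ± 0.91). Psmg2, of the other pair, was at 6.86 and 5.38 FPKM in controls, 3.18, 2.06 and 3.94 in KO embryos and 31.2, 42.7 and 37.2 in KO arrest. KO arrest was thus 12.1-fold above KO embryo in Psmg2 (3.25 ± 0.46, limma adjusted p = 0.00435). Psmg1, the partner of Psmg2, was listed at 0 and was at 13.8 FPKM in controls and at 24.3, 24.8 and 25.1 in KO arrest, and was not called (2.74 ± 1.15, limma adjusted p = 0.107).

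Of the 3 chaperones of the base, 2 were higher in KO arrest, beside 16.4% of all genes. Psmd10, also known as gankyrin, was at 29.0, 18.9 and 38.0 FPKM in KO arrest against 0 and 9.58 in controls (3.14 ± 0.87), and Psmd9 at 34.6, 27.6 and 31.3 against 0.119 and 11.9 (3.08 ± 0.86). In both the lower control was control embryo 1, at under 1 FPKM, so these calls support no direction. Psmd5 was at 70.2, 38.9 and 51.9 FPKM against 29.6 and 47.8, with overlapping groups, and was not called (0.46 ± 0.44, limma adjusted p = 0.47). Pomp, the maturation factor of the core that is no Psm gene, was at 72.1 and 49.6 FPKM in controls, 260.4, 190.4 and 253 in KO embryos and 525, 707 and 612 in KO arrest. Pomp was called in KO embryos (1.94 ± 0.35, limma adjusted p = 0.0148) as well as in KO arrest (3.33 ± 0.35, limma adjusted p = 0.000293).

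Of the 5 cap and PI31 genes, 1 was higher and 2 were lower in KO arrest, beside 16.4% and 8.87% of all genes. Psme4 encodes PA200, a nuclear cap known for the degradation of acetylated histones. It was at 22.7 and 22.8 FPKM in control embryos, at 51.8, 61.5 and 33.8 in KO embryos and at 5.67, 3.97 and 5.33 in KO arrest, so that the 3 groups did not overlap. KO arrest was 4.56-fold below control (log2 fold change −1.999 ± 0.47, limma adjusted p = 0.0121) and 9.84-fold below KO embryo (−3.03 ± 0.42, limma adjusted p = 0.00419). The higher level in KO embryos did not pass the test (1.04 ± 0.47, limma adjusted p = 0.228). As a share of the core sum, the Psme4 level was 7.35% and 5.59% in control embryos, 2.88% to 6.94% in KO embryos and 0.115% to 0.182% in KO arrest.

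Psme1 and Psme2 encode the alpha and beta chains of PA28, an interferon-inducible cap, and lie near Dcaf11, with Fitm1 between Dcaf11 and Psme1. In mm9, Dcaf11 spans chr14:56178866-56188902 on the plus strand. Psme1 spans chr14:56197331-56200364 on the plus strand, 8429 bases away, and Psme2 spans chr14:56206277-56209938 on the minus strand, 17375 bases away. Psme1 was listed at 0 and was at 4.57 FPKM in control embryos, and was at 14.2, 3.94 and 4.37 in KO embryos and 15.8, 54.6 and 18.7 in KO arrest (KO arrest against control 3.48 ± 0.87, limma adjusted p = 0.0157). Psme1 entered the test through its knockout levels, so this call supports no direction. Its end overlaps that of Emc9 on the other strand, and read strand is not stated. Psme2 was at 2.28 and 2.03 FPKM in control embryos, 0.421, 0.345 and 1.42 in KO embryos and listed at 0 in the 3 KO arrest libraries. It was called lower in KO arrest, by −1.66 ± 0.48 on the log2(FPKM + 1) scale (limma adjusted p = 0.0299). Psme2 entered the test through its control embryo levels, so this call supports no direction, and it was lost in 8 of 18 alternative settings. In ES cells Psme1 was at 17.4 and 12.1 FPKM in control and 25.6 and 22.7 in knockdown, and Psme2 at 0.462 and 0.627 and at 0.361 and 0.104. How the knockout allele bears on these genes was not tested.

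Psme3 encodes PA28 gamma, the nuclear member of the family. It was at 16.5 and 42.4 FPKM in control embryos, 28.6, 15.2 and 25.6 in KO embryos and 22.1, 21.1 and 16.5 in KO arrest, with overlapping groups and no call (KO arrest against control −0.41 ± 0.53, limma adjusted p = 0.602). The Psme3 level as a share of the core sum was 5.33% and 10.4% in controls, 1.72% to 2.31% in KO embryos and 0.413% to 0.709% in KO arrest. In ES cells that share was 15.4% and 17.0% in control and 24.9% and 21.5% in knockdown cells, at 84.8 and 90.3 FPKM and at 113 and 111 FPKM. Psmf1, the regulator PI31, was at 0.250 and 3.88 FPKM in control embryos, 6.46, 1.46 and 5.32 in KO embryos and 8.79, 9.07 and 13.4 in KO arrest, and was not called (2.18 ± 0.77, limma adjusted p = 0.0593).

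**Figure D4:**
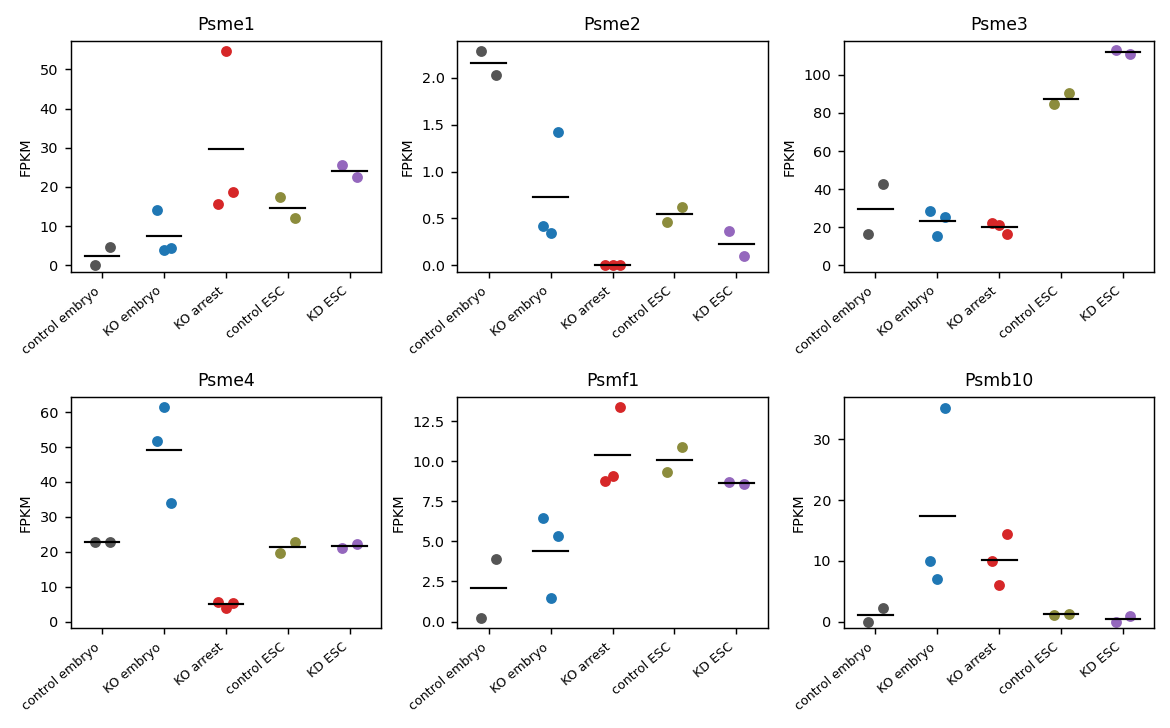
FPKM of the cap genes Psme1, Psme2, Psme3 and Psme4, of the regulator Psmf1 and of the inducible subunit Psmb10 in each of the 12 libraries. Points are libraries and bars are group means. Psme4 is highest in KO embryo and lowest in KO arrest, Psme2 is at 0 in the 3 KO arrest libraries, and Psme3 is highest in the ES cells.

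Inducible and tissue-restricted subunits replace constitutive ones in special forms of the core. Psmb10, the inducible counterpart of Psmb7, was listed at 0 and was at 2.18 FPKM in control embryos, and was at 9.98, 7.05 and 35.2 in KO embryos and 9.95, 6.08 and 14.5 in KO arrest. It was called higher in both (3.05 ± 0.80, limma adjusted p = 0.0487, and 2.57 ± 0.80, limma adjusted p = 0.0378), with KO embryo 3 the highest library. These calls were kept in 5 and 7 of 19 alternative settings. As Psmb10 reached 1 FPKM in 1 control embryo only, it entered the test through its knockout levels, so the calls support no direction. In ES cells it was at 1.06 and 1.29 FPKM in control and at 0 and 0.887 in knockdown. Its partners of the immunoproteasome did not accompany it. Psmb8 was listed at 0 in all 12 libraries. Psmb9 was listed at 0 in 10 of them, with 0.504 FPKM in control embryo 2 and 0.189 in KD ESC 2. Psmb11, the thymus-specific subunit, reached 0.467 FPKM in control embryo 2 and no more than 0.154 elsewhere. Psmb10 is also known from blood cells. Summed blood and immune markers lay between 85.6 and 222 FPKM in control embryos, 251 and 400.3 in KO embryos, and 0.116 and 30.5 in KO arrest. In KO arrest 11 of the 15 markers were at 0 in every library. The part of blood and immune RNA in the Psmb10 level was not tested.

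Of 6 tested genes of interferon response and antigen presentation, 1 was higher and 1 lower in KO arrest, close to the 16.4% and 8.87% of all genes. B2m, the light chain of MHC class I, was at 292, 283 and 455 FPKM against 64.3 and 126 in controls (1.88 ± 0.41), and the peptide-trimming enzyme Erap1 was listed at 0 in KO arrest against 1.67 and 2.72. Irf1, the interferon-responsive factor that drives the inducible subunits, was at 0.352, 1.30 and 1.81 FPKM against 1.85 and 4.08 (−0.89 ± 0.68, limma adjusted p = 0.368).

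Psma8, the alpha subunit of the testis, had its highest levels in ES cells, at 6.96 and 6.75 FPKM in control and 12.3 and 10.98 in knockdown cells. It was listed at 0 in both control embryos and reached 1.43 FPKM in KO embryo 3 and 2.00 in KO arrest 2. Psmc3ip, the symbol match, was at 22.6 and 20.7 FPKM in control embryos, 53.6, 64.3 and 49.5 in KO embryos, 43.1, 51.8 and 63.5 in KO arrest, 7.64 and 4.62 in control ES cells and 7.09 and 6.98 in knockdown cells. It counts among the 35 genes higher in KO arrest (1.23 ± 0.40, limma adjusted p = 0.0437), but was called in 5 of 19 alternative settings and in 0 of the 4 other scalings, with a log2 fold change of 0.012 with the length trend removed.

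In ES cells no gene matched by the symbol rule passed the threshold after Dcaf11 knockdown. Of 45 genes tested, 0 were called by limma, beside 2.59% of 12264 genes called higher, 3.64% lower and 6.23% in either direction, and the median log2 fold change was −0.09 over the 45 genes as over all genes. By unadjusted p under 0.05, 16 of the 45 genes differed, 6 higher and 10 lower, which is 35.6% beside 30.2% of all genes. The fit had 2 residual degrees of freedom, and the smallest adjusted p was 0.0521, that of Psmb5. Psmb5 was at 70.2 and 60.1 FPKM in control and 25.7 and 35.8 in knockdown cells (−1.07 ± 0.19). The most negative log2 fold changes were those of alpha ring genes with a wide spread between the knockdown libraries. Psma5 was at 9.17 and 8.32 FPKM in control and 0.397 and 2.76 in knockdown (−2.09 ± 0.51, limma adjusted p = 0.0815). Psma2 was at 15.9 and 13.4 FPKM and at 2.47 and 5.39 (−1.73 ± 0.33, limma adjusted p = 0.0582), and Psma7 at 14.6 and 16.3 and at 1.87 and 8.31 (−1.67 ± 0.59, limma adjusted p = 0.151). Other genes had higher values in knockdown cells, such as Psmb6 at 61.9 and 53.2 FPKM in control and 78.1 and 85.5 in knockdown (0.50 ± 0.11, limma adjusted p = 0.0711).

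The count in ES cells was 1 without KD ESC 1 and 4 without KD ESC 2, and 0 without either control library. With quantile normalization 1 gene was higher and 1 lower, with the length trend removed 2 were higher and 0 lower, and with a minimum of 5 FPKM 2 were called. Knockdown libraries lay above both controls in 8 genes (25.3% over all genes) and below both in 20 of 45 (37.1%). Shfm1, a small lid subunit with a symbol outside the rule, was called lower, from 17.5 and 15.0 FPKM to 0.784 and 2.79 (−2.73 ± 0.40, limma adjusted p = 0.0419). It was the only one of 17 tested proteasome-associated genes called in the knockdown, near the 6.23% over all genes.

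The difference between the knockout effect in embryos and the knockdown effect in ES cells was tested as an interaction in a fit of all 12 libraries. It was positive and called for 4 of 46 genes and negative for 0, beside 2.06% of 14447 genes called positive, 0.623% negative and 2.69% in either direction. The 4 were Psma6 (3.69 ± 0.46, limma adjusted p = 0.00553), Psmd7 (2.88 ± 0.34, limma adjusted p = 0.00492), Psma2 (2.90 ± 0.47, limma adjusted p = 0.0127) and Psmb7 (2.60 ± 0.38, limma adjusted p = 0.00946). The median difference was 1.28 over the 46 genes and 0.30 over all genes. Psma2, of the alpha ring, was at 41.8 and 30.3 FPKM in control embryos and 75.3, 83.9 and 85.2 in KO embryos, and its ES cell values are given above. Neither of its effects was called alone. The count was 17 without control embryo 2, 2 without control ESC 2 and 6 without control embryo 1. Strain, and knockout against knockdown, cannot be told apart from embryo against ES cell here.

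Control ES cells had higher RNA of 23 of the 46 genes than control embryos and lower RNA of 3, Psmc3ip, Psma2 and Psme2, beside 40.8% of 14447 genes called higher, 12.6% lower and 53.4% in either direction. Base and lid genes were higher in 14 of 21 cases and core genes in 6 of 16, and the difference between these shares was not tested. Control ES cells lay above both control embryos in 29 of the 46 genes (55.2% over all genes) and below both in 6 (19.2%). The median log2 fold change was 1.23 over the 46 genes and 1.01 over all genes. The split turned with the scaling: 22 higher and 3 lower with TPM, 16 and 7 with quantile normalization, 8 and 8 with the length trend removed and 6 and 8 with median-of-ratios scaling. These moved the median of all genes by 0.20, −0.93, −0.96 and −0.59.

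Psmd3 had the smallest adjusted p, at 68.3 and 55.6 FPKM in control ES cells against 6.14 and 5.95 in control embryos (log2 fold change 3.15 ± 0.36, limma adjusted p = 7.45e-05). Psmd1, at 24.4 and 23.6 FPKM against 7.81 and 3.42, and Psmd2, at 34.2 and 34.4 against 10.5 and 3.80, were also higher in ES cells. Psmd3, Psmd11, Psmc4, Psmc5, Psmb4 and Psma8 were the genes called in each of the 21 settings. Of these, Psma8, Psmb4, Psmc4 and Psmc5 were under 1 FPKM in control embryo 1 and passed the filter through other groups. The ATPase gene Psmc5 was at 37.8 and 35.7 FPKM in ES cells and Psmc4 at 22.4 and 16.7, while Psmb4 was at 20.0 and 22.0. The count was 15 and 11 without control ESC 1 and 2. These are libraries of different strains, and the strain cannot be told apart from the cell type.

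Within a library the level of the core relative to the base and lid was higher in embryos than in ES cells. The median core subunit was 1.88 and 2.91 times the median base and lid subunit in the control embryos, 3.58, 3.30 and 2.30 times in the KO embryos and 3.53, 3.01 and 2.87 times in KO arrest. In ES cells the ratio was 0.932 and 1.04 in control and 0.828 and 1.12 in knockdown cells. The 8 embryo libraries thus lay above the 4 ES cell libraries. These ratios compare different genes by FPKM, and the part of gene length in them was not tested. Between control ES cells and control embryos, removing the length trend moved the median of all genes by −0.96. The ratio of the sums was 1.38 and 1.71 in control embryos, 1.69, 1.41 and 1.45 in KO embryos and 2.08, 2.08 and 2.13 in KO arrest. In ES cells it was 0.867 and 0.813 in control and 0.721 and 0.920 in knockdown cells. By sums KO arrest lay above every other library, and by medians it overlapped the KO embryos. The order of the 31 constitutive subunits by mean FPKM was closest between control embryo and KO embryo (Spearman's rho 0.815) and between KO embryo and KO arrest (0.813), and was 0.484 between control embryo and control ESC. These correlations run across subunits and are given as a description.

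**Figure D5:**
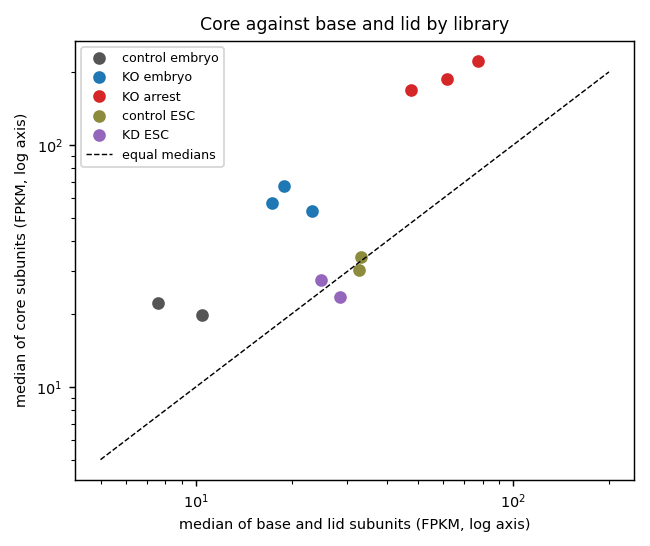
Median FPKM of the 14 constitutive core subunits against the median FPKM of the 17 base and lid subunits in each of the 12 libraries, on log axes. The dashed line marks equal medians. The 4 ES cell libraries lie near the line and the 8 embryo libraries lie above it, with ratios from 1.88 to 3.58.

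Of 17 tested genes that work with the proteasome, 4 were higher and 0 lower in KO arrest against control embryo, beside 16.4% and 8.87% of all genes. Their median log2 fold change was 0.46, and that of all genes 0.45. Besides Pomp, the 4 were Shfm1, at 839, 981 and 1143 FPKM against 72.1 and 79.0 (3.68 ± 0.47), the ubiquitin receptor Adrm1, at 33.4, 34.1 and 60.5 against 2.90 and 7.37 (2.88 ± 0.55), and the deubiquitinase Uchl5, which Adrm1 recruits (2.73 ± 0.54). Zfand5, a zinc finger protein known to stimulate the proteasome, was instead higher in KO embryos, at 114, 119 and 110.1 FPKM against 37.1 and 24.1 in controls and 41.1, 60.04 and 28.7 in KO arrest.

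Rps27a, which encodes ubiquitin fused to a ribosomal protein, was higher in KO arrest, at 327, 871 and 746 FPKM against 8.52 and 21.8 (5.34 ± 0.55). The activating enzyme Uba1 was at 0.999, 10.7 and 16.7 FPKM against 13.0 and 8.10 and was not called (−0.60 ± 0.83, limma adjusted p = 0.626). Of 13 tested genes of the segregase Vcp and its cofactors, 3 were higher and 0 lower in KO arrest, beside 16.4% and 8.87% of all genes, with a median log2 fold change of 0.66 against 0.45 over all genes. They were Nsfl1c, at 32.0, 42.3 and 38.2 FPKM against 0.101 and 3.86 (4.05 ± 0.65), Ufd1l, at 42.7, 38.7 and 36.2 against 0 and 9.24 (3.65 ± 1.02), and Ubxn1, at 24.9, 243 and 150.2 against 0 and 14.8 (4.63 ± 1.34). In each of the 3 the lower control was control embryo 1, at under 1 FPKM. They entered the test through their knockout levels, so these calls support no direction.

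In KO embryos against controls 2 of 17 proteasome-associated genes, Pomp and Zfand5, were higher and 0 were lower, beside 4.86% and 1.5% of all genes, and Rps27a was higher as well. The interaction was positive and called for 2 of the 17, beside 2.06% of all genes, namely Shfm1 (3.85 ± 0.71, limma adjusted p = 0.024) and Pomp (2.15 ± 0.37, limma adjusted p = 0.0168). Between control ES cells and control embryos, 40.8% of all genes were higher and 12.6% lower in the ES cells, with a median log2 fold change of 1.01. Of the 17 proteasome-associated genes 5 were higher and 4 lower, with a median of 0.44. The lower ones were Shfm1, Zfand5, Zfand2a and AI314180. AI314180 was at 1.88 and 2.44 FPKM in control ES cells and 5.31 and 6.25 in control embryos, and Zfand2a at 9.04 and 8.19 and at 28.2 and 15.5. Of 9 tested regulators of proteasome genes 5 were higher and 1, Mafk, lower, at 2.99 and 3.89 FPKM in ES cells and 11.97 and 14.2 in embryos. Of the 13 genes of Vcp and its cofactors 7 were higher and 1, Ubxn4, lower, at 13.1 and 13.999 FPKM and at 37.1 and 23.3. Of 7 tested genes of interferon response and antigen presentation, 1 was higher and 2 lower: Tapbp, which loads peptides onto MHC class I, was higher in ES cells at 13.6 and 15.6 FPKM against 0.167 and 1.23, while B2m and Erap1 were lower.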

How the data were processed

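Each of the 12 deposited files lists FPKM, TPM and coverage per gene, per the file headers. FPKM as the authors deposited it was the main unit. The deposited TPM, an alternative, is FPKM multiplied by a factor per library (1.78 to 2.93). The deposited coverage divided by FPKM, from 0.373 to 2.01, gives relative depth. The submitters' processing notes name STAR (0.6.0), StringTie, DESeq2 and mm9. The sources used here do not give their roles, the annotation or the handling of copies. The files hold no counts, so no counting interval is given.

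FPKM was summed per symbol. limma 3.58.1 (R 4.3.3) with a variance trend was fitted to log2(FPKM + 1), a pseudocount of 1 that understates the change of low genes. Tested genes reached 1 FPKM in 2 or more libraries of the fit, in fits of 8 embryo, 4 ES cell or all 12 libraries with 5, 2 and 7 residual degrees of freedom, with 0.05 as the threshold of the p adjusted by Benjamini-Hochberg over all genes tested. Psmb8, Psmb9 and Psmb11 were below that level, and Psme2 also in ES cells. Psma8, Psmb3, Psmb4, Psmb10, Psmc4 and Psmc5 were under 1 FPKM in control embryo 1. So were Psmd9, Psmd10, Psmd13, Psme1, Psmf1, Psmg1, Psmg3 and Psmg4, among others. These genes entered the fits that hold control embryos through knockout or ES cell libraries. Their calls as higher than in control embryos support no direction. The procedure was tested on simulated data. The genes, lists, tests and rule for named genes were chosen with earlier results of these data known. The rule names special forms, caps, called genes of largest change per class, uncalled genes in KO arrest and 3 genes per pathway list, and the 9 called genes, Uchl5, Uba1 and Psma1 are described besides. Exon lengths came from GENCODE M21 (GRCm38) by symbol, for 98.69% of symbols. No pair of libraries of the same group held identical values. Some genes of the pathway lists are not reported here. Other tables used Python 3.11.15, pandas 2.3.3, numpy 2.4.6 and matplotlib 3.10.9.

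Alternatives varied the pseudocount (0.1), the filter (none, or 5 FPKM), the scaling (deposited TPM, median of ratios, quantiles), the length trend (removed), the weights (per library), the replicate number (as a block), the libraries in the fit, and left out each library in turn.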

Additional observations from a re-analysis of the deposited data

Results flagged for a closer look

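In 4 genes the knockout effect in embryos differed from the knockdown effect in ES cells by the interaction test. The differences of the log2 fold changes were 2.90 for Psma2, 3.69 for Psma6, 2.60 for Psmb7 and 2.88 for Psmd7. In Psma6, Psmb7 and Psmd7 the embryo effect was called and the ES cell effect was not (Psma6 −0.51 ± 0.11, Psmb7 −0.59 ± 0.16, Psmd7 −0.08 ± 0.17). In Psma2 neither effect was called, with 1.17 ± 0.36 in embryos and −1.73 ± 0.33 in ES cells. Psma6 and Psmd7 were called in each of the 21 settings, Psmb7 in 18 and Psma2 in 15.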

How the results depend on the processing

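The number of proteasome genes called was recomputed under each alternative. For KO embryo against control embryo (9) it was 3 without a filter, 4 with median-of-ratios scaling, 2 with weights per library, 2 with the replicate block, 16 in a fit of all 12 libraries and 2 with only the 2 groups in the fit. For KO arrest against control embryo (37) it was 24 with the length trend removed. For KO arrest against KO embryo (13) it was 8 without a filter, 6 with TPM, 29 with weights, 6 with the length trend removed, 7 with the replicate block, 22 in a fit of all 12 libraries and 28 with only the 2 groups. For KD ESC against control ESC (0) it was 2 with a minimum of 5 FPKM, 2 with quantile normalization, 1 with weights and 2 with the length trend removed. For control ESC against control embryo (26) it was 14 with median-of-ratios scaling, 16 with weights and 16 with the length trend removed. For the interaction (4) it was 2 with median-of-ratios scaling and 2 with the length trend removed. With single libraries left out the ranges, in the same order, were 2 to 17, 29 to 36, 5 to 28, 0 to 4, 11 to 30 and 2 to 17. The other counts were within 1.5 times the main one, and the cause of these moves was not tested.

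Among genes called in a comparison, signs changed in control ESC against control embryo and in no other: with median-of-ratios scaling Psmb7 was at −0.2104, Psmc3 at −0.0592 and Psmd6 at −0.006, and with the length trend removed Psmc3 was at −0.0063. Uncalled genes changed sign elsewhere too: of 45 genes in KD ESC against control ESC, 17 were positive, 22 with median-of-ratios scaling and 24 with the length trend removed, and of 46 in KO embryo against control embryo, 39 and 36 with median-of-ratios scaling. Of the genes called, 2 of 9, 19 of 37, 5 of 13, 6 of 26 and 2 of 4 (the ES cell knockdown aside) were called in every setting run. Same-numbered libraries of different groups did not deviate together (r from −0.101 to 0.025). In groups of 2 the deviations from the mean mirror each other, so these values cannot settle whether the numbers pair the libraries. The replicate block gave 28, 0, 22 and 3 calls in the comparisons not named with it above. A group reduced to 1 library takes its spread from the remaining groups, which is an assumption. The number of reads behind a value is unknown.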
